A study of Mus musculus with 6 samples.

Results

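Metallothioneins and the genes that move zinc across membranes were followed through early differentiation of mouse ES cells, with and without induction of miR-200c and miR-141. The 7 genes were Mt1, Mt2, Mtf1, Slc30a1, Slc39a4, Slc39a8 and Slc39a10, of 18193 genes that the array reads through at least 1 probe set with a single gene symbol. Where a gene has several probe sets, its main one was chosen by measured brightness, as the one whose intensity averaged highest on the 6 arrays, and the others are given as a check. That choice used no difference between treatments or days. Each array gave 1 RNA sample, with 1 array per treatment and day. The induced samples were A2.miR200c cells collected on days 3, 4 and 5 that had 500 ng/mL doxycycline from day 2. The protocol renewed the dose on day 4, after the day 3 sample had been taken, and whether the day 4 sample was taken before or after that dose is not stated. The untreated samples were the same line without doxycycline, collected on the same days, and carried the same inducible insert. The line came from A2lox ES cells in which Cre recombination had placed a genomic fragment holding both miRNAs behind a doxycycline-responsive promoter, and it was a single line. All cells were grown as embryoid bodies, floating aggregates in which ES cells differentiate, from 15000 cells per mL in medium with 10% serum, after 1 passage off the feeder cells. No doxycycline-treated line without the miRNA insert was among these arrays, so an effect of doxycycline itself cannot be told apart from that of the miRNAs.

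Metallothioneins are small proteins rich in cysteine that bind zinc and copper in the cytosol and are known as a buffer for both metals. Their transcription is driven by Mtf1, a zinc-finger factor that takes up zinc, enters the nucleus and binds short DNA sequences called metal response elements. Slc30 proteins carry zinc out of the cytosol and Slc39 proteins carry it in, and Mtf1 is known to switch on the exporter Slc30a1 along with the metallothioneins. Metallothionein RNA is known to respond to metals, glucocorticoids and oxidative stress as well.

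Mt1 and Mt2 are neighbours on mouse chromosome 8, on the same strand, with annotated starts 6471 bases apart in GRCm38.p6. The core of the metal response element, TGCACNC or TGCGCNC, was looked for on both strands of the RefSeq promoter windows, which run from 250 bases before to 50 bases after an annotated start. The forms differ at 1 base, so no place can match both on 1 strand. The Mt1 window (chr8:94178839-94179138, plus strand) held 3 matches and the Mt2 window (chr8:94172368-94172667, plus strand) held 4. Of all 32851 windows in the RefSeq table, 25.7% held at least 1 match, 1.97% at least 3 and 0.517% at least 4. The matches are printed because Mtf1 is known to act on this pair through sequences with this core. Whether it acts through any of these matches was not tested. The core is in capitals with 8 bases on either side, read 5′ to 3′ on the strand of the match. Positions are those of the leftmost base of the core, counted from +1 at the annotated start. Whether transcription began at that start in these cells was not tested.
Mt1, 23 bases before the start: tcccgctgTGCACACtggcgctc
Mt1, position 3 after the start: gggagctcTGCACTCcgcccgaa
Mt1, position 21 after the start: ccgaaaagTGCGCTCggctctgc
Mt2, 223 bases before the start: atcgcctcTGCACCCggcccctc
Mt2, 128 bases before the start: agacccttTGCGCTCagctcctt
Mt2, 50 bases before the start, opposite strand: acagagccTGCACACgccctccc
Mt2, position 5 after the start, opposite strand: cctgggccTGCGCACgacccgaa
Slc30a1, 43 bases before the start, opposite strand: ctttgcttTGCACTCggaacccc
Slc30a1, position 31 after the start, opposite strand: gcggcgacTGCGCTCggcccgga

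The Slc30a1 window (chr1:191906531-191906830, plus strand) thus held 2 matches, a number reached or passed by 7.11% of all windows. The Mtf1 window held none, 1 of the 2 Slc39a8 windows held 1, and neither of the 2 Slc39a10 windows held any. Mt3 and Mt4, which lie nearby on chromosome 8, had 1 match each. A match is a run of letters and does not show that Mtf1 bound there in these cells. The induced miRNAs are printed because they are the agent of the treatment, with the seed, bases 2 to 8, in capitals (RefSeq, GRCm38.p6, chr6:124718324-124718346 and chr6:124717917-124717938, both minus strand). Their seeds differ at 1 of these bases.
mmu-miR-200c-3p: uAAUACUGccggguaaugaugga
mmu-miR-141-3p: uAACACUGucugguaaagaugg

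Mt1 fell during differentiation, with a higher level left on day 5 in induced than in untreated cells. Its intensity (a linear, model-based value without a physical unit) was 3761, 2598 and 1338 on days 3, 4 and 5 in induced cells, against 3501, 1411 and 492 in untreated cells. On day 5 the induced cells thus held 35.6% of their day 3 level, and the untreated cells 14.0%. The induced and untreated arrays lay close to each other on day 3, the induced array was the higher of the pair on each later day, and the induced day 5 array was near the untreated day 4 array.

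Mt2 ran almost the same course. Its intensity was 3634, 2428 and 1334 in induced cells, against 3889, 1391 and 411 in untreated cells, so that day 5 stood at 36.7% of day 3 in induced cells and at 10.6% in untreated cells. On day 3 the induced array was the lower of the pair, and on days 4 and 5 it was the higher. In neither gene did the ranges of the induced and untreated arrays separate over the 3 days. In whole embryoid bodies, fewer cells that carry a transcript and less of that transcript per cell cannot be told apart.

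**Figure D1:**
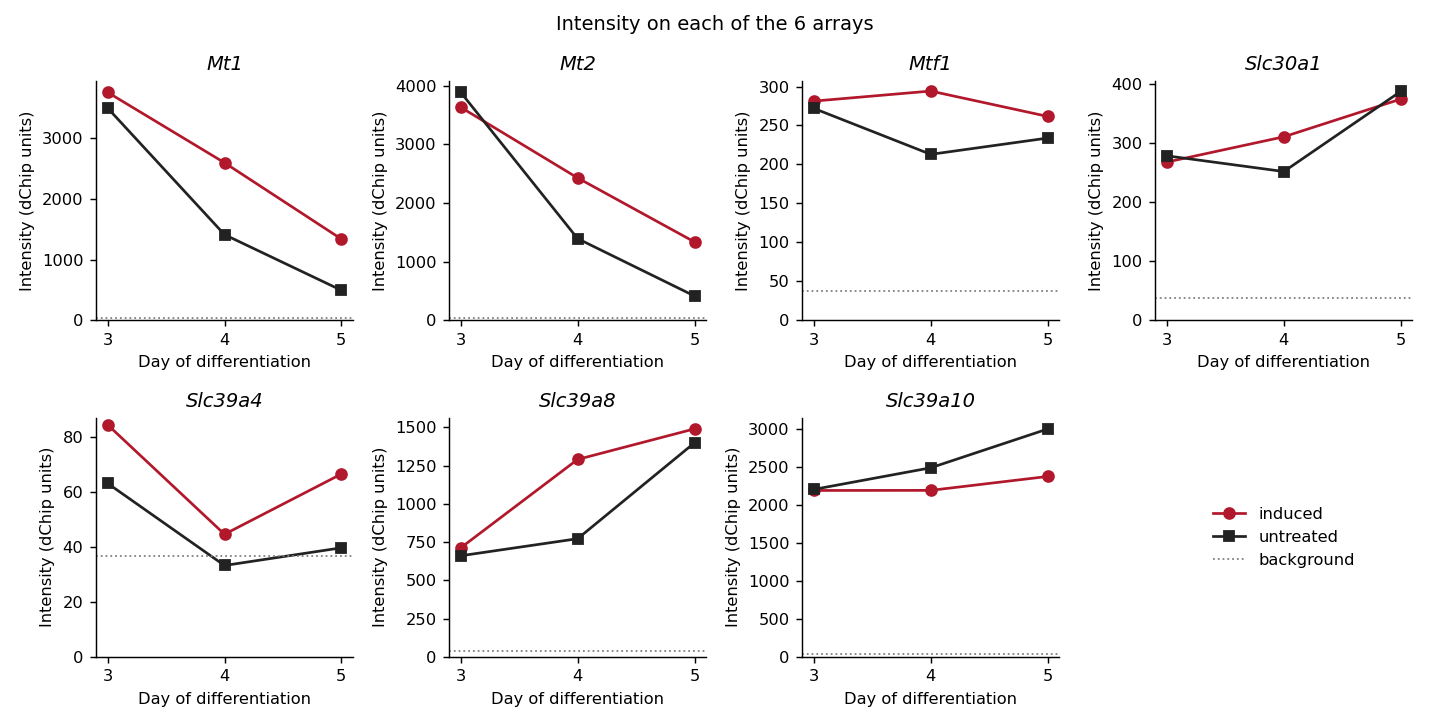
Intensity (dChip units, linear axis from 0) of the main probe set of each gene on days 3, 4 and 5, with 1 array per point, induced cells as red circles and untreated cells as black squares. Mt1 and Mt2 fall in both treatments and end at 1338 and 1334 in induced cells, against 492 and 411 in untreated cells, while Slc39a8 climbs in both. The dotted line is the background level of 36.8.

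With treatment and day alone as terms in the fit, the fall over time was the change that passed a test. In limma, fitted to log2(intensity + 50) of 9997 genes with treatment and day as terms, day 5 minus day 3 over both treatments was -2.09 ± 0.29 for Mt1 (SE, adjusted p = 0.00662) and -2.25 ± 0.38 for Mt2 (SE, limma adjusted p = 0.0107). All tests here took both directions, with Benjamini-Hochberg adjustment over all 9997 genes. Day 5 differed from day 3 in 39.9% of all genes tested, 20.6% higher and 19.2% lower, so a call on this comparison is a common event. The size of the fall was less common: in untreated cells Mt2 had the 17th and Mt1 the 32nd most negative change of all 9997 genes, and 4.86% of genes fell by 2-fold or more. In induced cells they stood 130th and 115th, where 3.07% of genes fell by 2-fold or more. Within a treatment the fall in log2 units was 1.46 for Mt1 and 1.41 for Mt2 in induced cells, with no replicate behind either value.

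The difference between treatments was larger on each later day for both genes. Induced minus untreated Mt1 was 0.10, 0.86 and 1.36 on days 3, 4 and 5 on the log2 scale, which is 2.56-fold on day 5. For Mt2 it was -0.10, 0.78 and 1.59, or 3.00-fold on day 5. A value at least 2-fold higher with induction was seen in 0.01% of genes on day 3, 0.08% on day 4 and 1.97% on day 5 (2-fold lower in 0.01%, 0.5% and 1.52%), and both metallothioneins were in the day 5 set. On day 4, Mt1 had the 19th and Mt2 the 28th highest difference of all genes tested. On day 3, by contrast, Mt1 ranked 2156th.

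**Figure D2:**
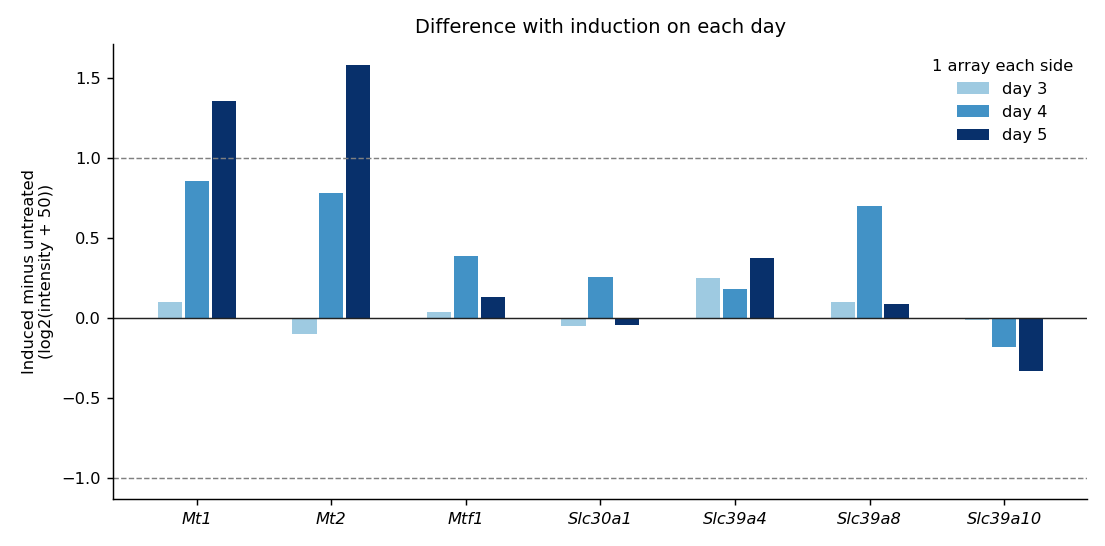
Induced minus untreated on days 3, 4 and 5 (light to dark bars, log2(intensity + 50)), 1 array on each side, with no error bar because no day was replicated. Dashed lines mark a 2-fold difference, which only the day 5 bars of Mt1 (1.36) and Mt2 (1.59) pass.

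Averaged over the 3 days, the induced cells exceeded the untreated cells by 0.77 ± 0.63 for Mt1 and by 0.76 ± 0.84 for Mt2 (log2, SD, n = 3 days). The spread over days was thus about as large as the mean, and without day 5 the averages were 0.48 and 0.34. In limma neither average passed the test (adjusted p = 0.573 for both), and no gene did, at 0% of 9997, although 842 genes had an unadjusted p below 0.05. The change of the difference per day, a treatment by linear day term, was 0.63 ± 0.07 per day for Mt1 and 0.84 ± 0.06 per day for Mt2 (log2, SE, limma adjusted p = 0.109 and 0.105), again with 0% of genes called and with 1322 below an unadjusted p of 0.05. Once that term stood in the fit, the average difference passed for Mt1 and Mt2 (limma adjusted p = 0.0157 for both), as it did for 1.45% of all genes and for none of the other 5 genes described here. That fit leaves 1 residual degree of freedom, and the days are its only replicates.

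Among the 9997 genes, the profile of Mt2 over the 6 arrays was the 3rd most like that of Mt1 (Pearson r = 0.997, log2 values, a description over 6 arrays that share their days and treatments). The 5 most alike to Mt1 outside the 7 genes were Diaph1, a formin that nucleates actin filaments (r = 0.998), Calcr, the calcitonin receptor (0.998), Degs1, an enzyme of ceramide synthesis (0.997), Zbtb44 (0.996) and 2310068J16Rik (0.996). For Mt2 they were Nit2, an amidase (0.998), Zbtb44 (0.998), Gca, a calcium-binding protein (0.997), Slc25a28, a mitochondrial iron carrier (0.9965), and Hltf, a DNA translocase (0.9965). Calcr intensity was 698, 467 and 212 on days 3, 4 and 5 in induced cells, against 620, 220 and 27.4 in untreated cells, the last of these under the background level. Hltf intensity was 1034, 785 and 595 in induced cells, against 1084, 652 and 315 in untreated cells.

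**Figure D3:**
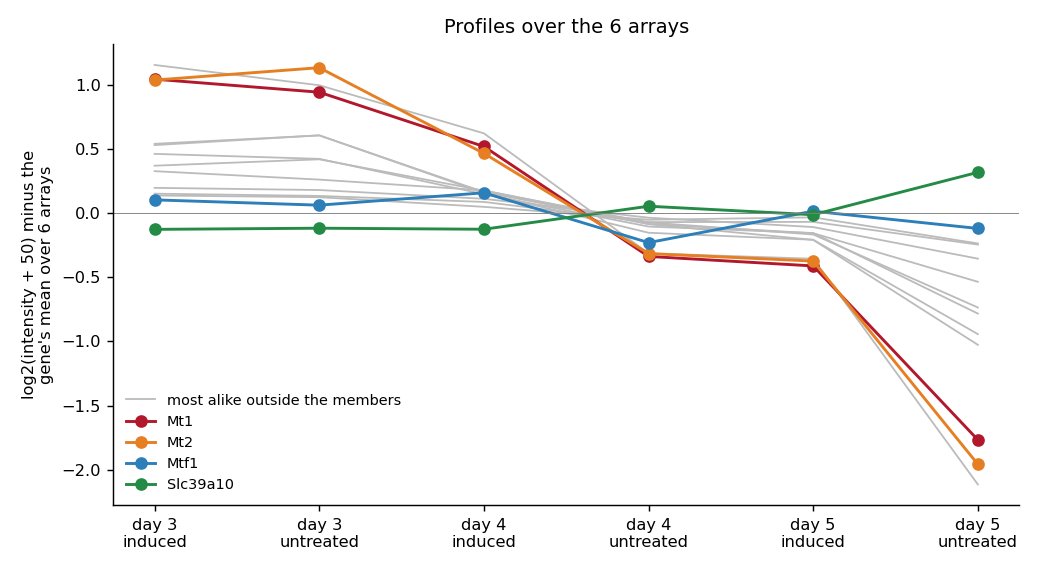
Each gene's log2(intensity + 50) minus its mean over the 6 arrays, for Mt1, Mt2, Mtf1, Slc39a10 and, in grey, the genes outside the set that are most alike to Mt1 or Mt2 in Pearson r. Arrays run by day, with the induced array left of the untreated one, and the lines only join points of 1 gene. Mt1 and Mt2 lie nearly on each other, Mtf1 stays within a narrow range, and Slc39a10 is highest on the untreated day 5 array.

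The other metallothioneins of the list were at background. Mt3 and Mt4, forms known mainly from brain and from stratified epithelium, were below background on all 6 arrays, and neither was tested. Background was set at 36.8, the 95th percentile of 77 sensory receptor genes over the arrays. Mt1 has a second probe set, which read between 7.42 and 21.2 and so was below background on every array. The Mt1 probe set used here carries the suffix that Affymetrix gives to probes matching more than 1 transcript, and whether it also reads Mt2 RNA was not tested. Mt2 has 1 probe set.

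Mtf1, the regulator, was called in none of the tests. Its intensity was 281, 294 and 262 on days 3, 4 and 5 in induced cells, against 272, 213 and 234 in untreated cells. The induced array was the higher on each day, as in 19.3% of all genes, and the widest gap was on day 4 (0.39, log2). The average difference was 0.19 ± 0.18 (log2, SD, n = 3 days, limma adjusted p = 0.602), and day 5 minus day 3 was -0.14 (limma adjusted p = 0.405). Of the 4 other Mtf1 probe sets, 2 were below background on all arrays, and the brighter of the other pair gave -0.28 on day 4, the opposite direction. Over the 6 arrays the correlation of Mtf1 with Mt1 was 0.68 and with Mt2 0.65, which ranked 2565th and 2706th among the tested genes.

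Slc30a1, which exports zinc across the plasma membrane and is a known Mtf1 target, did not follow the metallothioneins. Its intensity was 268, 311 and 374 on days 3, 4 and 5 in induced cells, against 278, 252 and 388 in untreated cells. It was highest on day 5 in both treatments, where both metallothioneins were lowest. The change from day 3 to day 5 was 0.42 in induced cells and 0.41 in untreated cells (log2), and 0.42 ± 0.12 over both (SE, limma adjusted p = 0.0418). That call was lost without day 4 (limma adjusted p = 0.0674) and with no filter on low values (limma adjusted p = 0.0679). The average difference with induction was 0.06 ± 0.17 (log2, SD, n = 3 days, limma adjusted p = 0.871), and it changed sign to -0.05 without day 4. The second Slc30a1 probe set, dim at 38.1 to 66.9, moved the other way over time, by -0.41 in induced cells and -0.22 in untreated cells.

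Slc39a8, an importer of zinc that also carries manganese and cadmium, rose over time. Its intensity was 712, 1290 and 1490 in induced cells, against 660, 772 and 1399 in untreated cells. The induced cells were ahead on day 4, and the treatments stood close together on days 3 and 5. Day 5 minus day 3 was 1.01 in induced cells and 1.03 in untreated cells (log2), each a little over 2-fold, and 1.02 ± 0.17 over both (SE, limma adjusted p = 0.0108). A rise of that size was seen in 4.67% of genes in induced cells and in 5.93% in untreated cells. The day 4 difference with induction, 0.71 on the log2 scale, was the 46th highest of all genes tested, but over the 3 days it averaged 0.30 ± 0.35 (SD, n = 3 days, limma adjusted p = 0.581). The second Slc39a8 probe set was also higher in the induced cells on each day, by 0.22, 0.59 and 0.38. It rose less over time, by 0.43 in induced cells and 0.27 in untreated cells (log2).

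Slc39a10, an importer that Mtf1 is known to hold down in mouse cells with ample zinc, ran against the metallothioneins. Its intensity was 2188, 2189 and 2372 on days 3, 4 and 5 in induced cells, against 2202, 2486 and 2997 in untreated cells. The induced array was the lower of the pair on each day, as in 14.3% of all genes, and the gap was larger on each later day. From day 3 to day 5 it changed by 0.11 in induced cells and by 0.44 in untreated cells (log2). Over the 6 arrays its profile had the correlation farthest below 0 with Mt1 among the other 6 genes (Pearson r = -0.96). Among all genes tested it ranked 9780th in likeness to Mt1, so it was not the most opposed. Its average difference, -0.17 ± 0.16 (log2, SD, n = 3 days), did not pass (limma adjusted p = 0.573), nor did its change per day of -0.16 (limma adjusted p = 0.308) or day 5 minus day 3 at 0.28 (limma adjusted p = 0.0612). The second Slc39a10 probe set gave -0.03, -0.23 and -0.26 on the 3 days, in the same direction each day.

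Slc39a4, the importer known for zinc uptake in the intestine, was the dimmest of the set. Its intensity was 84.6, 44.7 and 66.7 in induced cells, against 63.3, 33.3 and 39.8 in untreated cells, where the day 4 array was below background. It passed the filter on low values through the induced day 3 array alone, and so its values are given with that limit. Induced minus untreated was 0.25, 0.18 and 0.38, with an average of 0.27 ± 0.10 (log2, SD, n = 3 days, limma adjusted p = 0.573). Day 5 minus day 3 was -0.27 (limma adjusted p = 0.140).

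Counted together, all 7 genes passed the filter. Day 5 differed from day 3 in 4 of the 7, with Slc30a1 and Slc39a8 higher and Mt1 and Mt2 lower, against 39.9% of all genes. With induction, Mt1, Mtf1 and Slc39a8 were higher on all 3 days, as were 19.3% of all genes, and Slc39a10 was lower on all 3 days. Slc39a4 was also higher each day, but it entered the tests through an induced array, so its direction is not counted here. No level can be set against that of another gene, since probe sets differ in brightness, and 1 array per treatment and day gives no spread by which neighbours in the order of levels could be told apart.

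**Figure D4:**
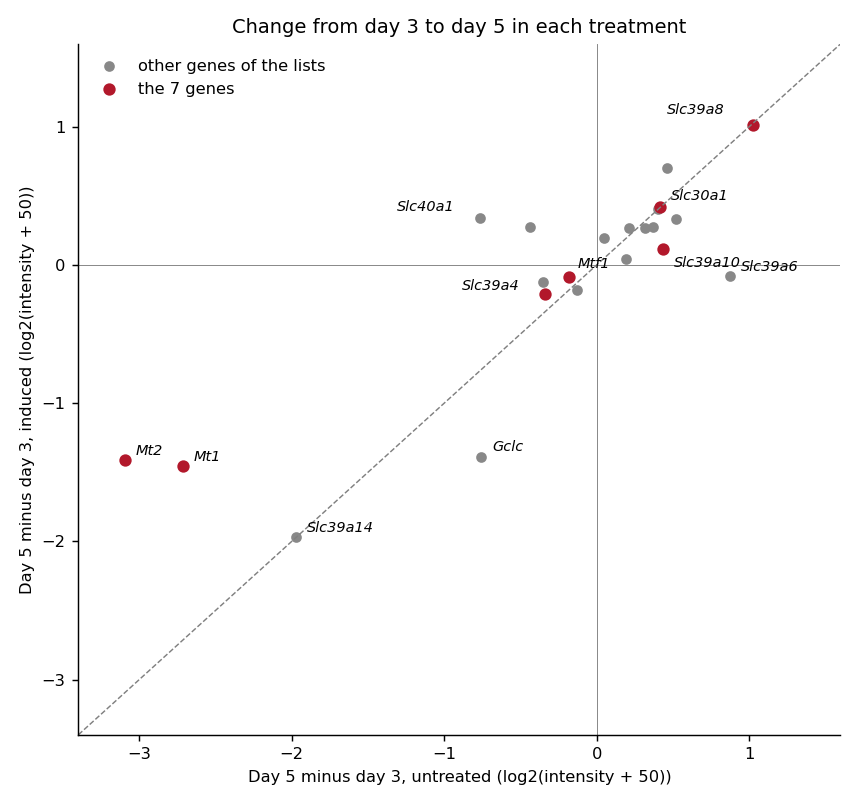
Change from day 3 to day 5 in untreated cells (horizontal axis) and in induced cells (vertical axis), both in log2(intensity + 50), for the 7 genes in red and the other tested zinc exporters, importers and Mtf1 targets in grey. On the dashed line both treatments change alike. Mt1 and Mt2 lie far above it, at -1.46 and -1.41 in induced cells and -2.71 and -3.09 in untreated cells, while Slc39a8, Slc30a1 and Slc39a14 lie on it.

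In the wider zinc transporter families no gene was called for induction, and the calls were changes over time. Of 10 Slc30 exporters, 7 were tested, and 5 were higher on day 5 than on day 3 in limma with none lower, against 20.6% of all genes higher and 19.2% lower. Besides Slc30a1 these were Slc30a4 (0.58, adjusted p = 0.0140) and Slc30a5, Slc30a6 and Slc30a9, which rose by 0.29 to 0.43 (log2, limma). The median day 5 minus day 3 was 0.32 over the exporters tested and 0.00 over all genes tested. Of 14 Slc39 importers, 9 were tested, with 2 higher on day 5 (Slc39a8 and Slc39a1, at 0.40, limma adjusted p = 0.0141) and 1 lower, a share close to the 39.9% of all genes called either way. The lower one was Slc39a14, an importer of zinc, iron and manganese, which had 1409, 591 and 322 on days 3, 4 and 5 in induced cells, against 1340, 504 and 305 in untreated cells (day 5 minus day 3 -1.97, limma adjusted p = 0.00144). It thus stood at much the same level in both treatments on each day, and its induction difference had a change per day of -0.00055 (log2, limma adjusted p = 0.999).

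Slc39a6, an importer whose zebrafish form is needed for cell movement in the gastrula, is given although it was chosen after its values were seen. Its intensity was 563, 367 and 530 in induced cells, against 544, 551 and 1039 in untreated cells. The induced array was far the lower on day 5, at -0.91 on the log2 scale. Over the 3 days the difference averaged -0.46 ± 0.48 (SD, n = 3 days, limma adjusted p = 0.573), and its change per day was -0.48 (limma adjusted p = 0.145).

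Genes for which control by Mtf1 has been described went in different directions. Of 7 such genes tested, 4 of them among the genes above, none was called for induction. On day 5 against day 3 Slc30a1 and Selenow were higher and Mt1, Mt2 and Gclc lower in limma, against 20.6% and 19.2% of all genes. Gclc, the catalytic subunit of the first enzyme of glutathione synthesis, had 3225, 1926 and 1201 in induced cells, against 2941, 1811 and 1720 in untreated cells (day 5 minus day 3 -1.07, limma adjusted p = 0.00880). On day 5 its induced array was thus the lower one, unlike those of Mt1 and Mt2. Selenow, a small selenoprotein, rose by 0.24 over the same interval (limma adjusted p = 0.0186). Slc40a1, the iron exporter, had 528, 635 and 681 in induced cells, against 392, 261 and 210 in untreated cells, a difference of 0.39, 1.14 and 1.49 on the 3 days. With the treatment by linear day term in the fit its average difference also passed (limma adjusted p = 0.0157).

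Other conditions that metallothioneins are known to answer to were read from marker lists, which are small and were not tested as sets. Of 9 copper handling genes tested, none was called for induction and 1 was lower on day 5, against 19.2% of all genes. It was Atox1, a copper chaperone (-0.48, limma adjusted p = 0.0139, named after its value was seen). Slc31a2, a copper transporter, was higher in the induced cells on each day by 0.36 to 0.42 (mean 0.38 ± 0.04, log2, SD, n = 3 days, limma adjusted p = 0.573). Atp7a, a copper-exporting ATPase, differed by 0.10, -0.03 and -0.72 on the 3 days (mean -0.22 ± 0.44, log2, SD, n = 3 days, limma adjusted p = 0.699). Over the 9 copper genes 7 were higher and 2 lower with induction on day 4, and 5 were higher and 4 lower on day 5. Among all 9997 genes, 5402 were higher on day 4 and 5323 on day 5.

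Of 9 oxidative stress genes tested, 8 were lower on day 5 than on day 3 and none higher, against 19.2% of all genes lower and 20.6% higher. Among them were the NADPH-dependent reductases Nqo1 (-2.63, limma adjusted p = 0.00146) and Gsr (-1.13, limma adjusted p = 0.00227). None of the 9 was called for induction. On day 4 all 9 were higher in the induced cells (median 0.12, log2), against 5402 of all 9997 genes. On day 5 there were 4 higher and 5 lower (median -0.22, log2), against 5323 of 9997 higher. Nqo1 was higher in the induced cells on each day, by 0.20, 0.61 and 0.31, and so was Gsr, by 0.17, 0.31 and 0.26.

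Of 8 heat shock genes tested, Bag3 rose and Hspb1, Hspa8 and Hsp90aa1 fell from day 3 to day 5, against 20.6% and 19.2% of all genes. None of the 8 was called for induction. With induction 3 were higher and 5 lower on day 4, against 4593 of all 9997 genes lower. On day 5, 1 was higher and 7 lower (median -0.10, log2), against 4673 of 9997 lower. The 1 higher on day 5 was Hspb1, a small heat shock protein, at 0.79 on that day and 0.41 ± 0.35 on average (log2, SD, n = 3 days), a difference that passed only with the treatment by linear day term in the fit (limma adjusted p = 0.0286).

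Of 8 glucocorticoid response genes tested, Tsc22d3 rose and Fkbp5, Dusp1 and Klf9 fell over time, against 20.6% and 19.2% of all genes. Zbtb16 was also called higher, but it passed the filter on low values only through its day 5 arrays. These read 90.8 in induced and 88.1 in untreated cells, with all earlier arrays below background, so its direction is not counted here. The glucocorticoid response and heat shock genes were named after their values were seen. None of the 8 was called for induction. With induction 4 were higher and 4 lower on day 4, against 5402 of all 9997 genes higher. On day 5, 7 were higher and 1 lower (median 0.26, log2), against 5323 of 9997 higher. Dusp1, a phosphatase, and Sgk1, a kinase, were higher by 0.57 and 0.81 on day 5, and Tsc22d3, the exception, was at -0.40.

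Markers of several cell types also differed between treatments and days. On day 3, Pou5f1, Nanog, Sox2 and Zfp42 were all well above background in both treatments. The paper describes Oct4 (Pou5f1) and Nanog as shared by ES cells and epiblast-like stem cells, so they do not by themselves mark ES cells. The summed intensity of 10 ES cell and pluripotency genes was 30891, 20790 and 11774 on days 3, 4 and 5 in induced cells. In untreated cells it was 31093, 19265 and 6177. In limma 8 of the 9 tested were called lower on day 5 than on day 3, against 19.2% of all genes. The exception, Nanog, was also lower, by 1.63 on the log2 scale, but just missed the threshold (limma adjusted p = 0.0531). Among the 8, Nr0b1 and Esrrb passed the filter on low values only through their day 3 arrays, so their calls carry that limit. With induction 5 of the 9 were higher and 4 lower on day 4 (median 0.06, log2), near the 5402 of all 9997 genes that were higher. On day 5, 8 were higher and 1 lower (median 0.43, log2), against 5323 of 9997 higher. The difference for Pou5f1, the core pluripotency factor Oct4, was 0.06 on day 4 and 1.49 on day 5, and that for Sox2 was 0.24 and 0.94. Not all of the list moved so: Zfp42 was at -0.23 and 0.43 on these days, and Dppa2 at -0.03 and -0.16.

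The sum of 8 epithelial genes was 19631, 25084 and 31719 in induced cells, against 17338, 18782 and 19520 in untreated cells. Only the simple keratins Krt8 and Krt18 were called over time, both higher on day 5, against 20.6% of all genes, and they carry the climb of the sum. The other 6 were all lower on day 5 than on day 3 in untreated cells, by 0.58 to 2.23 on the log2 scale, so that the median change over the 8 was 0.33 in induced cells and -1.11 in untreated cells. All 8 were higher in the induced cells on days 4 and 5, against 5402 and 5323 of all 9997 genes. The sum of the measured early mesoderm and blood genes was 457, 4078 and 12860 in induced cells, against 546, 9708 and 15583 in untreated cells. Aplnr was the largest part on day 5, at 5860 in induced and 6124 in untreated cells. With induction all 9 tested were lower on day 4 (median -1.30, log2), against 4593 of 9997 genes. On day 5, 8 were lower (median -0.88, log2), against 4673 of 9997, and 1, Mixl1, was higher. Among the 9, Tal1 passed the filter on low values only through the untreated day 5 array.

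Extraembryonic endoderm genes summed to 1495, 2602 and 6410 in induced cells, against 1722, 3513 and 5897 in untreated cells, most of which on day 5 was Sox17, a gene of definitive endoderm as well, at 3875 in induced and 2914 in untreated cells. Afp, Apoa1, Apob and Hnf4a, which mark visceral endoderm, were below background on all 6 arrays. Other genes of the list were not. Cubn read 224 to 465 and Amn 71.2 to 127, both above background on all 6 arrays, and Ttr was above it on 4. Of the 9 tested, Sox17, Gata4, Gata6 and Lama1 rose over time, against 20.6% of all genes. Feeder fibroblast genes summed to 251 to 273 in induced cells, against 244 to 485 in untreated cells. The 485 was on untreated day 5, where Twist2 read 176 and Postn 83.2, against 12.5 and 1.81 on untreated day 4. Dcn, too dim to be tested, went the other way. It read 61.6, 52.0 and 23.4 on days 3, 4 and 5 in induced cells, against 58.7, 34.8 and 3.77 in untreated cells. What these cell types contribute to the metallothionein levels was not tested.

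The arrays themselves were alike. Their median intensity was 34.5 to 36.9 over the 6 arrays, with 48.8% to 50.1% of probe sets above background. The measured housekeeping genes summed to 44541 to 46385 in induced cells, against 43903 to 46686 in untreated cells.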

How the data were processed

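RNA from embryoid bodies was hybridised to 6 Affymetrix MOE430 2.0 arrays, 1 per treatment and day. The deposited values are linear probe set intensities that the authors normalized and modelled with dChip, whose version and settings are not given in the sources used here. The table held 45037 probe sets, of which 34945 had a single symbol in the platform annotation, 932 several and 9160 none. With no replicate of a treatment and day, the 3 days served as replicates, and whether any samples came from separate cultures is not stated, so p-values measure only the spread between these samples. log2(intensity + 50) was tested with limma 3.58.1 in R 4.3.3 (lmFit, eBayes with trend), with treatment and day as terms and 2 residual degrees of freedom, on the 9997 genes whose highest value reached the median of all gene values, 80.1. The 50 added before the log damps the folds of dim genes. A call is an adjusted p below 0.05. Within-day differences and within-treatment changes rest on 1 array each side and were not tested. Differences on the same days and changes in the same treatment share arrays. The 7 genes, the gene lists and the naming rule were chosen with earlier results of these data known. By that rule, other metallothionein, zinc transport and Mtf1 target genes were to be named if called in a test or changed by 2-fold or more. So were up to 3 genes of each other list with the largest average difference, and the 5 genes most alike to Mt1 and to Mt2. Not every gene that met the rule is named in the text. Some genes, among them markers of cell types, were named outside it after their values were seen. Promoter and miRNA sequences came from RefSeq tables on GRCm38.p6, in which Slc39a4 was not matched. The scripts were tested on simulated data. Alternatives were other pseudocounts, filters, probe set rules and normalization, no day term, the treatment by linear day term and leaving out each day.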

Additional observations from a re-analysis of the deposited data

How the results depend on the processing

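The count of genes called for induction, 0, ran from 0 to 2 with a day left out, and reached 145 with the treatment by linear day term in the fit. The count called for day 5 minus day 3, 3984, became 2454 without day 4 and 7000 with every probe set tested, a larger table. The count for treatment by linear day, 0, became 11 with a pseudocount of 100 and 208 with every probe set tested. Of 168 repeated tests of the 7 genes, 160 kept their direction and their side of the threshold. The induction difference of Slc30a1 ran from -0.0454 (without day 4) to 0.1068 (without day 3) on the log2 scale, the 1 change of direction. Slc30a1 lost its day 5 call without day 4 and with no filter. With a day left out, the induction difference ran from 0.48 (without day 5) to 1.11 (without day 3) for Mt1 and from 0.34 (without day 5) to 1.18 (without day 3) for Mt2 (log2). It passed for both once the treatment by linear day term stood in the fit, and over 11 alternatives their limma adjusted p lay between 0.0157 and 1. Their treatment by linear day term passed with every probe set tested (limma adjusted p = 0.0152 for Mt1 and 0.0119 for Mt2), and for Mt2 with a pseudocount of 100 (0.0495). In the cases of changed calls the cause was not tested. Each day's pair of arrays was a block in the fit, and without the day term no gene was called for induction. Day 5 minus day 3 could not be had without day 3 or day 5, nor the linear term without any of the days. The number of arrays, 6, limits the precision, and Slc39a4 lay near background.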
